A study of Arabidopsis thaliana with 24 samples.

Results

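Nuclear genes whose transcripts fell in both shoots and roots of phosphate (Pi)-starved wild-type Arabidopsis are described here. A probe set belonged to this repressed set when the mean log2 signal of wild-type plants at −Pi lay more than 1 unit below that at +Pi in shoots and also in roots. Of 22746 probe sets on the array, 176 met both conditions. Removing 42 probe sets for genes of the chloroplast and mitochondrial genomes, and 5 for genes set aside by name (BHLH101, AT1G47400, DIN10, PMT6 and AT1G32470), left 129 members. The members were selected on the wild-type values at −Pi and +Pi, so their fall is a description and carries no test.

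Plants were grown for 7 days on solid Johnson medium with 2% sucrose, and RNA from whole shoots and whole roots was hybridised to Affymetrix ATH1 arrays. The 8 groups of 3 arrays were phr1 phl1 shoots and roots without Pi, phr1 shoots and roots without Pi, wild-type shoots and roots without Pi, and wild-type shoots and roots with 2 mM Pi. Per the study's methods all plants were of the Columbia (Col-0) background, which the labels write with a different number for each sample, the phl1 allele being a T-DNA insertion, and no mutant array at +Pi was analysed here, so levels of the mutants before starvation were not measured. In whole organs, fewer cells of a type and less RNA per cell cannot be told apart.

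PHR1 and PHL1 are MYB-CC transcription factors that bind a short motif found in many promoters of Pi-responsive genes, and PHR1 is best known as an activator in Pi starvation. Plants short of Pi also slow growth. Ribosomes are a large store of phosphorus in a cell, because ribosomal RNA (rRNA) holds a phosphate in every nucleotide. Ribosome biogenesis begins in the nucleolus, where assembly factors such as methyltransferases, helicases and GTPases cleave, modify and fold the precursor rRNA. Pi-starved plants also reduce the making of phosphocholine, a phosphorus-containing lipid head group, and accumulate iron, which forms poorly soluble salts with Pi.

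The signal of PHL1 lay between 7.06 and 9.31 (log2) in the 6 arrays labelled phr1 phl1 and between 4.34 and 6.06 in the other arrays. It was thus higher, not lower, in the arrays labelled phr1 phl1. The position of this probe set with respect to the insertion is not known here, so the label could not be checked with it, and no probe set was matched to PHR1. Below, phr1 phl1 stands for the arrays with that label. Of the 4 measured shoot marker genes, the median was 4.63 over root arrays and 11.27 over shoot arrays. The 2 measured root markers, the root-hair expansins EXPA7 and EXPA18, had a median of 7.85 in roots and 4.28 in shoots.

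In each of the 6 −Pi groups, the array with the lowest score on the component described below was picked. Finding 1 such array per group thus follows from the choice. The picked arrays are called those that stood apart. These were replicate 3 of phr1 phl1 shoots, replicate 1 of phr1 phl1 roots, replicate 2 of phr1 shoots, replicate 3 of phr1 roots, and replicate 2 of wild-type shoots and of wild-type roots at −Pi. On the first principal component of the deviations from the group means, computed without the members and holding 38.5% of that variance, these arrays scored from −0.474 to −0.119, whereas all others scored from −0.058 to 0.266. Not every picked array was alone in lying apart. The 3 phr1 phl1 root arrays scored −0.165, 0.167 and −0.002, so replicate 2 lay far out on the other side. Most members were low in these arrays: between 92 and 104 of the 129 lay below their group mean in each of them. The deviations of 72 members (55.8%) correlated above 0.5 with the array score, against 17.8% of all probe sets. The same rule applied without the 6 arrays found 89 probe sets, of which 77 were among the 129 members. Values without these arrays are therefore given with the main results below, and the part of the array score in the results was not tested.

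In wild type, the median member was 1.55 log2 units lower at −Pi than at +Pi in shoots and 1.28 units lower in roots, while the median of all probe sets moved by −0.04 and −0.01. The member medians without the 6 arrays were −1.49 in shoots and −1.17 in roots. More members fell further in shoots (81) than in roots (48). All 3 arrays at −Pi lay below all 3 at +Pi for 122 members in shoots (25.2% of all probe sets did so) and for 128 in roots (20.5%).

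**Figure D1:**
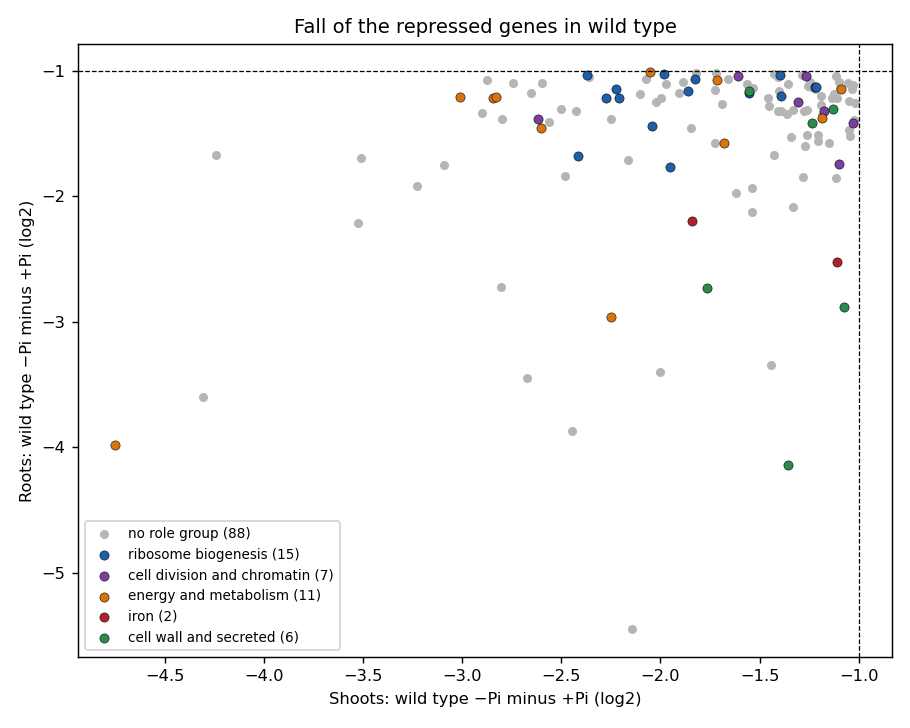
Difference between wild type at −Pi and at +Pi (log2) in shoots (x axis) and roots (y axis) for the 129 members, coloured by role group; dashed lines mark the thresholds of −1. AT1G73600 had the largest mean fall, with −4.75 in shoots and −3.98 in roots.

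Some probe sets lay close to the thresholds on either side. In shoots the 3 members nearest to the limit had differences of −1.03 (245219_at), −1.025 (AT4G25835) and −1.02 (248267_at), and the 3 nearest probe sets outside had −0.99 (AT1G52870), −0.97 (AT1G19530) and −0.97 (259896_at). In roots the nearest members had −1.02 (AT5G48240), −1.02 (253977_at) and −1.01 (AT3G23700), and the nearest outside had −0.999 (AT5G14440), −0.999 (AT1G25230) and −0.99 (AT5G23760).

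Among the members, 72 probe sets matched 1 gene each (71 loci), 3 matched several genes and 54 had no matched gene and are called by their probe set ID. The 72 named members lay on all 5 nuclear chromosomes, with 17, 9, 11, 13 and 22 on chromosomes 1 to 5. Averaged over the 8 groups, member signals ranged from 3.65 to 9.51 with a median of 6.15 (log2), against a median of 5.40 over all probe sets. Of the named members, 41 probe sets were placed in 5 role groups after their values had been seen: ribosome biogenesis (15 probe sets of 14 genes), energy and metabolism (11), cell division and chromatin (7), cell wall and secreted proteins (6) and iron (2).

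The mutants were next set against wild type at −Pi. The wild-type arrays at −Pi also chose the members, so mutant values are given as a description beside the background of all probe sets. A difference of over 2-fold with an adjusted p under 0.05 in limma is called here. In shoots, 42 members were called higher in phr1 phl1 (8.24% of all probe sets were), and 2 were called lower (8.2%). In phr1 shoots, 41 were higher (6.48%) and 1 was lower (6.63%). In roots, 33 members were higher in phr1 phl1 (3.45%) and 2 lower (2.19%), and 20 were higher in phr1 (1.49%) and 1 lower (0.919%). The numbers higher without the 6 arrays were 51 in phr1 phl1 shoots (8.69%), 53 in phr1 shoots (6.97%), 35 in phr1 phl1 roots (3.83%) and 18 in phr1 roots (1.49%).

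Judged by group means alone, 23 members were more than 2-fold above wild type at −Pi in both organs of phr1 phl1 (1.18% of all probe sets), 28 in shoots and not roots (7.35%), 13 in roots and not shoots (2.55%) and 65 in neither (88.9%). These counts were 24, 33, 13 and 59 when the 6 arrays were left out. The median member was 0.78 log2 units above wild type at −Pi in phr1 phl1 shoots and 0.69 in phr1 shoots, but only 0.07 in phr1 phl1 roots and 0.03 in phr1 roots. For all probe sets these medians lay between −0.03 and 0.03. The difference between the organs was not tested, because the wild-type arrays of both organs chose the members.

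All 3 arrays of phr1 phl1 lay below all 3 wild-type arrays at +Pi for 62 members in shoots (18.6% of all probe sets) and 77 in roots (18.0%). The same held in phr1 for 61 members in shoots (18.2%) and 100 in roots (21.3%). The +Pi arrays were used by the rule, so these counts too are a description.

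**Figure D2:**
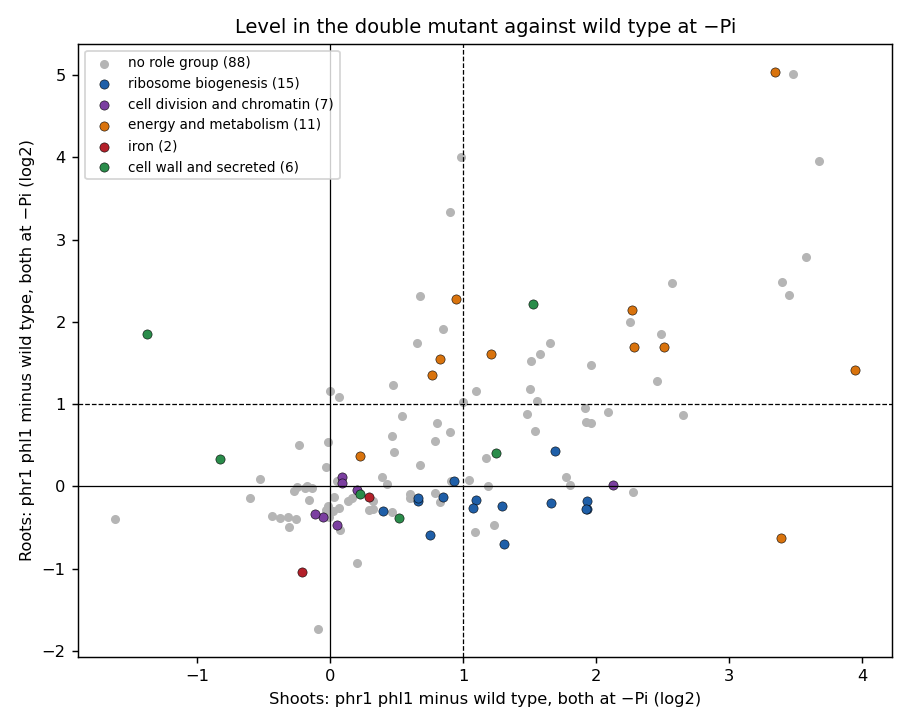
Difference between phr1 phl1 and wild type, both at −Pi (log2), in shoots (x axis) and roots (y axis) for the 129 members, coloured by role group; dashed lines mark 2-fold. Ribosome biogenesis members extend along the shoot axis near 0 in roots, whereas most energy and metabolism members are raised on both axes.

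Ribosome biogenesis was the largest role group, with 14 genes and 15 probe sets. It holds REBELOTE (RBL, AT3G55510) and AT2G18220, both of the Noc2p family that escorts the large subunit precursor, the NOC3-type AT1G79150 (measured by 2 probe sets), the Nop2-type and Spb1-type rRNA methyltransferases AT4G26600 and AT4G25730, and the BMS1-type GTPase AT1G06720, the KRR1-type AT3G24080 and the Utp14-type AT4G02400 of the small subunit processome. SMO4 (AT2G40430, of the Nop53 family), the SURF6-type AT5G05210, the ESF1-type AT3G01160, the DEAD-box helicase AT5G65900, the SRP40-type AT5G57120 and the RNA-binding protein AT5G46840 complete it. In wild type the group median was −1.95 (range −2.41 to −1.22) in shoots and −1.16 (range −1.76 to −1.03) in roots.

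In shoots of both mutants all 15 probe sets had means above wild type at −Pi, whereas in phr1 roots all 15 had means below it (without the 6 arrays they ranged from −0.41 to 0.17, so not all were below). The median of the group over wild type at −Pi was 1.1 in phr1 phl1 shoots (range 0.4 to 1.93) and 1.34 in phr1 shoots (0.38 to 2.05). In roots it was −0.2 in phr1 phl1 (−0.71 to 0.43) and −0.3 in phr1 (−0.57 to −0.03). In shoots 5 probe sets were called higher in phr1 phl1 (8.24% of all probe sets) and 5 in phr1 (6.48%), and in roots none in phr1 phl1 (3.45%) or phr1 (1.49%).

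The group's median signal shows how far single arrays shape these values. In shoots it was 5.55, 5.82 and 4.07 in phr1 phl1 shoots, 5.69, 4.33 and 5.98 in phr1 shoots, 4.09, 3.6 and 4.19 in wild-type shoots at −Pi and 5.64, 6.04 and 5.94 in wild-type shoots at +Pi. The root signal was 4.7, 6.46 and 5.6 in phr1 phl1 roots, 5.57, 6.27 and 4.64 in phr1 roots, 6.04, 5.02 and 6.08 in wild-type roots at −Pi and 6.78, 7.07 and 7.27 in wild-type roots at +Pi. In each −Pi group the lowest value came from the array that stood apart, and in mutant shoots the other 2 arrays of each genotype reached or nearly reached the range of the +Pi arrays.

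Every ribosome biogenesis probe set followed the array score, with correlations from 0.59 to 0.89. Without the 6 arrays, the group median in wild type was −1.8 in shoots and −0.83 in roots, and only 3 of the 15 probe sets still met the rule in both organs. Over wild type at −Pi, 13 of the 15 then met the threshold in phr1 phl1 shoots (8.69% of all probe sets) and 13 in phr1 shoots (6.97%), with medians of 1.41 and 1.73, and none did so in roots. Most of the group thus met the rule only with these arrays included, and its higher levels in mutant shoots were called for more probe sets without them. Both changes follow from the choice of low-scoring arrays and are a description. In the shoot arrays left out, the median deviation of the group from its group mean was −1.14 in phr1, −1.1 in phr1 phl1 and −0.3 in wild type.

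RBL lay near the top of the group's range in phr1 phl1 shoots, at 1.93 over wild type at −Pi. Its signal was 6.34, 6.5 and 4.57 in phr1 phl1 shoots, 6.37, 4.53 and 6.75 in phr1 shoots, 4.09, 3.34 and 4.19 in wild-type shoots at −Pi and 6.09, 6.59 and 6.05 in wild-type shoots at +Pi. Roots gave 5.7, 6.11 and 5.7 in phr1 phl1 roots, 6.03, 6.27 and 5.27 in phr1 roots, 6.44, 5.51 and 6.08 in wild-type roots at −Pi and 6.78, 7.07 and 7.27 in wild-type roots at +Pi. Its phr1 phl1 and phr1 shoot arrays all exceeded the wild-type arrays at −Pi, and its root arrays overlapped between the 3 genotypes at −Pi. Such separation in shoots held for 5 of the 15 probe sets in phr1 phl1 (22.9% of all probe sets) and 5 in phr1 (18.8%). AT1G06720 and AT5G46840, given next, were also among the larger rises, with 1.66 and 1.93 in phr1 phl1 shoots. AT5G05210 had the smallest, 0.4.

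The BMS1-type GTPase gene AT1G06720 had 6.06, 6.47 and 4.21 in phr1 phl1 shoots, 6.42, 4.74 and 6.64 in phr1 shoots, 3.86, 3.73 and 4.17 in wild-type shoots at −Pi and 5.85, 6.06 and 5.99 in wild-type shoots at +Pi. Root values were 4.48, 6.7 and 5.6 in phr1 phl1 roots, 5.77, 6.54 and 4.66 in phr1 roots, 6.23, 5.12 and 6.03 in wild-type roots at −Pi and 6.79, 7.47 and 7.44 in wild-type roots at +Pi. The mutant arrays that stood apart came closest to wild type at −Pi in shoots, and only the +Pi arrays were separate in roots.

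AT5G46840 encodes an RNA-binding protein. Its shoot signals were 7.03, 7.6 and 4.9 in phr1 phl1 shoots, 7.15, 5.36 and 7.39 in phr1 shoots, 4.74, 3.62 and 5.37 in wild-type shoots at −Pi and 7.18, 6.23 and 7.15 in wild-type shoots at +Pi. In roots they were 5.51, 7.68 and 7.04 in phr1 phl1 roots, 6.9, 7.48 and 5.86 in phr1 roots, 7.32, 6.39 and 7.35 in wild-type roots at −Pi and 8.02, 8.54 and 8.15 in wild-type roots at +Pi. Replicate 3 of phr1 phl1 shoots and replicate 2 of phr1 shoots lay inside the wild-type range at −Pi, and the other mutant shoot arrays lay well above it.

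Of a list of 25 further ribosome biogenesis factors, drawn up after the values were seen, 10 were measured. None was a member, which follows from drawing the list outside the role group. At −Pi in wild type, 6 of the 10 were called lower in shoots (7.95% of all probe sets) and none in roots (1.64%), with medians of −1.42 and −0.59. A factor called lower in both organs would have been a member, so these wild-type counts are a description. The nucleolin NUC1 had differences of −1.50 (SE 0.14) in shoots and −0.64 (SE 0.14) in roots, and PES, a Pescadillo-type large subunit factor, −1.35 (SE 0.19) and −0.46 (SE 0.19). In shoots, 9 of the 10 were higher in phr1 phl1 (8.24% of all probe sets) and 10 in phr1 (6.48%), and none in roots. Their medians without the 6 arrays were −1.22 in shoots and −0.6 in roots.

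**Figure D3:**
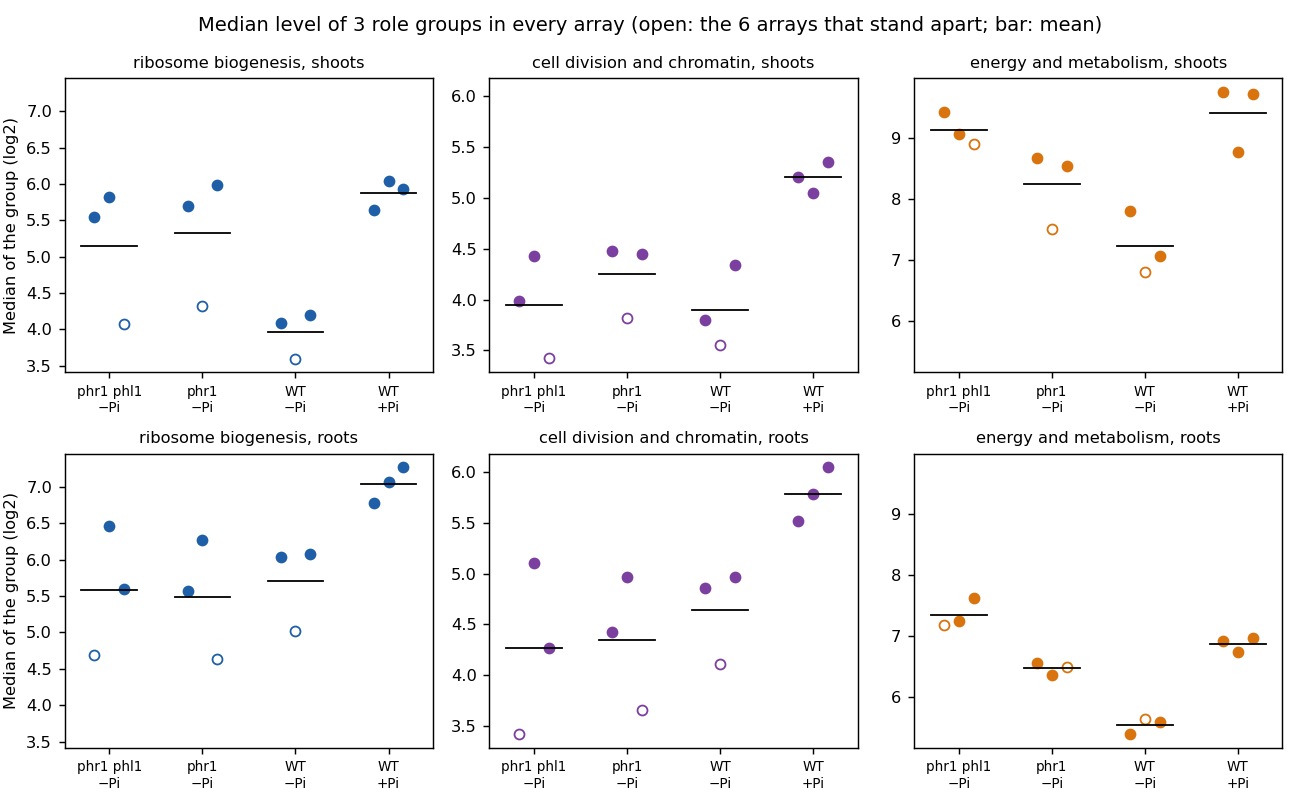
Median log2 signal of the ribosome biogenesis (15 probe sets), cell division and chromatin (7) and energy and metabolism (11) members in every array, shoots above and roots below; from left to right phr1 phl1, phr1 and wild type at −Pi and wild type at +Pi, with a bar at each mean and open points for the 6 arrays that stood apart. The open points are the lowest of their group for the first 2 role groups, and the energy and metabolism medians of both mutants exceed those of wild type at −Pi in roots.

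The cell division and chromatin members were 3xHMG-box1 (AT4G11080), which coats mitotic chromosomes, the TPX2-family microtubule protein AT5G15510, the GRAS factor SCL28 (AT1G63100), which acts in the G2 to M transition, the PDS5-type cohesin cofactor AT1G15940, the PWWP-domain protein AT5G40340, NERD (AT2G16485), a protein of RNA-directed DNA methylation, and the ZRF1-type DnaJ protein AT3G11450. Their median difference in wild type was −1.27 in shoots and −1.32 in roots, and −1.18 and −1.16 without the 6 arrays. Over wild type at −Pi the medians were 0.09 in phr1 phl1 shoots, 0.15 in phr1 shoots, −0.05 in phr1 phl1 roots and −0.09 in phr1 roots. AT3G11450 alone among the 7 differed by over 2-fold in a mutant.

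AT3G11450 carried 7.55, 8.49 and 5.53 in phr1 phl1 shoots, 7.91, 6.56 and 8.04 in phr1 shoots, 5.37, 3.93 and 5.89 in wild-type shoots at −Pi and 7.78, 7.17 and 8.1 in wild-type shoots at +Pi. In roots its signal was 5.57, 8.04 and 7.21 in phr1 phl1 roots, 6.93, 7.39 and 5.95 in phr1 roots, 7.27, 6.18 and 7.31 in wild-type roots at −Pi and 8.08, 8.48 and 8.32 in wild-type roots at +Pi. Over wild type at −Pi it was higher by 2.13 in phr1 phl1 shoots and 2.44 in phr1 shoots, and the genotypes overlapped in roots at −Pi.

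3xHMG-box1 was dim throughout the shoots. Its values were 3.4, 3.23 and 2.69 in phr1 phl1 shoots, 2.96, 2.88 and 2.98 in phr1 shoots, 2.94, 2.96 and 3.16 in wild-type shoots at −Pi and 3.72, 3.84 and 4.79 in wild-type shoots at +Pi. Root values were 3.24, 4.65 and 3.6 in phr1 phl1 roots, 3.45, 4.99 and 2.98 in phr1 roots, 3.92, 3.26 and 4.2 in wild-type roots at −Pi and 4.88, 5.63 and 6.09 in wild-type roots at +Pi. The +Pi arrays were highest in both organs, apart from an overlap in roots with replicate 2 of phr1, which exceeded the lowest +Pi array.

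The energy and metabolism members included the transcription factor BZO2H3 (bZIP63), a target of the energy-sensing kinase SnRK1, AT3G15450 and AT4G27450, which encode related proteins with YGL and LRDR motifs, the plastid ribosome hibernation factor-type AT5G24490, and AT1G56220 of the dormancy and auxin associated family. Enzymes of the group were CHLM, the Mg-protoporphyrin IX methyltransferase of chlorophyll synthesis, THIC, which makes the pyrimidine part of thiamin, AAH, which degrades the purine catabolite allantoate, the CTP synthase AT1G30820 and the phosphoethanolamine N-methyltransferase AT1G73600, and the S1-domain RNA-binding protein AT3G23700 of the plastid completed it. Their median difference in wild type was −2.25 in shoots and −1.22 in roots. Over wild type at −Pi, the median was 2.27 in phr1 phl1 shoots and 1.49 in phr1 shoots, and 1.61 in phr1 phl1 roots and 1.01 in phr1 roots. The threshold was met in phr1 phl1 by 7 of the 11 in shoots (8.24% of all probe sets) and 9 in roots (3.45%), and in phr1 by 6 in shoots (6.48%) and 5 in roots (1.49%).

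Only 3 of the 11 followed the array score above 0.5, and without the 6 arrays the wild-type medians were −2.27 in shoots and −1.3 in roots. The corresponding counts in shoots and roots were 7 (8.69%) and 9 (3.83%) in phr1 phl1 and 5 (6.97%) and 4 (1.49%) in phr1. In roots 10 of the 11 had all 3 phr1 phl1 arrays above all wild-type arrays at −Pi, as had 46 of the 129 members and 16.1% of all probe sets; those wild-type arrays chose the members for being low.

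AT3G15450 was among the 4 members with the highest mean difference between phr1 phl1 and wild type at −Pi. Its shoot signal was 11.76, 11.31 and 10.93 in phr1 phl1 shoots, 9.99, 8.59 and 9.86 in phr1 shoots, 8.87, 8.04 and 7.06 in wild-type shoots at −Pi and 10.75, 8.71 and 11.25 in wild-type shoots at +Pi. Its roots measured 10.7, 10.46 and 10.42 in phr1 phl1 roots, 9.24, 8.56 and 7.8 in phr1 roots, 4.97, 5.85 and 5.64 in wild-type roots at −Pi and 8.94, 7.54 and 8.87 in wild-type roots at +Pi. All mutant arrays in roots lay far above wild type at −Pi, and phr1 phl1 roots exceeded even the +Pi arrays. Replicate 2 of wild-type shoots at +Pi was low, below the highest wild-type array at −Pi.

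BZO2H3 gave 9.0, 8.47 and 8.0 in phr1 phl1 shoots, 8.67, 6.47 and 8.42 in phr1 shoots, 4.72, 4.6 and 4.31 in wild-type shoots at −Pi and 7.91, 6.91 and 7.84 in wild-type shoots at +Pi. Its root values were 6.93, 7.0 and 7.03 in phr1 phl1 roots, 6.46, 6.05 and 5.96 in phr1 roots, 5.43, 5.54 and 5.76 in wild-type roots at −Pi and 6.84, 6.55 and 6.96 in wild-type roots at +Pi. In shoots of wild type at −Pi the 3 arrays lay far below every mutant array, and in roots the 3 genotypes at −Pi did not overlap, and phr1 phl1 overlapped the +Pi arrays.

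AT4G27450, the relative of AT3G15450, differed between the organs. It reached 9.27, 9.06 and 8.91 in phr1 phl1 shoots, 7.41, 7.52 and 7.63 in phr1 shoots, 6.0, 6.01 and 5.06 in wild-type shoots at −Pi and 9.76, 6.53 and 9.27 in wild-type shoots at +Pi. In roots its values were 9.1, 9.18 and 8.86 in phr1 phl1 roots, 8.21, 8.2 and 8.35 in phr1 roots, 9.63, 9.86 and 9.53 in wild-type roots at −Pi and 10.57, 11.61 and 10.48 in wild-type roots at +Pi. In shoots both mutants lay above wild type at −Pi, and in roots both lay below it without overlap. Replicate 2 of wild type at +Pi was again low in shoots.

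The same +Pi shoot array was low for other members. The unnamed 252367_at had 10.25, 9.61 and 9.55 in phr1 phl1 shoots, 8.53, 7.62 and 9.21 in phr1 shoots, 7.45, 6.01 and 5.53 in wild-type shoots at −Pi and 9.12, 5.03 and 9.16 in wild-type shoots at +Pi. Its root signals were 9.41, 9.05 and 8.62 in phr1 phl1 roots, 8.04, 7.57 and 6.39 in phr1 roots, 3.98, 3.73 and 4.33 in wild-type roots at −Pi and 7.88, 6.44 and 7.76 in wild-type roots at +Pi. Replicate 2 of wild-type shoots at +Pi lay below every −Pi shoot array for this probe set, and phr1 phl1 roots were above all wild-type roots.

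A further such probe set was 249606_at, with 7.56, 7.84 and 6.84 in phr1 phl1 shoots, 7.15, 6.45 and 7.36 in phr1 shoots, 3.87, 3.38 and 4.27 in wild-type shoots at −Pi and 7.67, 4.27 and 7.26 in wild-type shoots at +Pi. The roots gave 8.75, 8.26 and 7.95 in phr1 phl1 roots, 7.76, 8.16 and 6.99 in phr1 roots, 5.7, 5.25 and 5.63 in wild-type roots at −Pi and 7.52, 5.38 and 7.89 in wild-type roots at +Pi. Here replicate 2 at +Pi was the low one in both organs, within or near the range of the wild-type −Pi arrays. Leaving out that shoot array gave 136 probe sets under the rule, of which 123 were members.

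Of the 25 genes on a list for carbon starvation and sugar signalling, 8 were measured and none was a member, since DIN10 and PMT6 were removed by the rule. In wild type at −Pi, 4 of the 8 were called lower in shoots (7.95% of all probe sets) and 1 was higher (8.26%). In roots 2 were called lower (1.64%), and these were DIN10 and PMT6, which were also among the 4 in shoots. The rule names both for removal, so these wild-type counts are a description. Over wild type at −Pi, 4 were called higher in phr1 phl1 shoots and 6 in phr1 phl1 roots, with list medians of 1.87 and 1.47 (8.24% and 3.45% of all probe sets were called). For phr1 the list had 3 such calls in shoots (6.48%) and 2 in roots (1.49%), with medians of 0.78 and 0.39. The leucine-degrading enzyme IVD, with wild-type differences of −0.48 (SE 0.28) in shoots and −0.14 (SE 0.28) in roots, was not lower by the threshold in either organ.

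The list of 23 tetrapyrrole synthesis genes had 11 measured. Of these, 7 were called lower in wild-type shoots at −Pi (7.95% of all probe sets) and 1 in roots (1.64%). CHLM was among the 7 in shoots and was the 1 in roots, and the rule had chosen it for both falls. HEMC (porphobilinogen deaminase) had a difference of −1.95 (SE 0.16) in shoots and −0.11 (SE 0.16) in roots, and CHLI2, a subunit of Mg chelatase, −2.05 (SE 0.22) and −0.11 (SE 0.22).

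The phosphoethanolamine N-methyltransferase AT1G73600, an enzyme of phosphocholine synthesis, had the largest mean fall of all members. Its shoot signal was 4.46, 4.45 and 4.12 in phr1 phl1 shoots, 4.75, 4.45 and 4.97 in phr1 shoots, 4.3, 3.8 and 4.26 in wild-type shoots at −Pi and 7.83, 10.59 and 8.18 in wild-type shoots at +Pi. In roots it was 5.12, 4.84 and 5.05 in phr1 phl1 roots, 6.33, 6.35 and 5.77 in phr1 roots, 4.47, 4.7 and 4.71 in wild-type roots at −Pi and 8.73, 8.9 and 8.21 in wild-type roots at +Pi. No mutant array reached the +Pi range in either organ. In roots phr1 lay above phr1 phl1, and phr1 phl1 above wild type at −Pi, without overlap. The other 3 measured genes among the 9 on the phosphocholine and inositol list did not fall in roots by the threshold. In shoots PMT2 and CCT1 were higher at −Pi, with differences of 0.6 (SE 0.225) and 1.17 (SE 0.47). Their root differences were −0.64 (SE 0.225) and 0.86 (SE 0.47). CCT2, the enzyme that activates phosphocholine for lipid synthesis, had a difference of −1.05 (SE 0.38) in shoots. CCT2 correlated at 0.86 with the array score and was not called lower in shoots without the 6 arrays.

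OPT3 transports iron into the phloem, and the loss of it raises iron uptake by roots. Its shoot values were 8.16, 8.35 and 8.09 in phr1 phl1 shoots, 7.63, 8.31 and 7.95 in phr1 shoots, 7.76, 8.12 and 7.86 in wild-type shoots at −Pi and 9.8, 9.79 and 9.67 in wild-type shoots at +Pi. Root values were 5.56, 4.74 and 5.15 in phr1 phl1 roots, 5.79, 6.06 and 5.63 in phr1 roots, 5.2, 5.58 and 5.03 in wild-type roots at −Pi and 7.68, 7.49 and 7.23 in wild-type roots at +Pi. In shoots the 3 genotypes at −Pi overlapped, in roots phr1 lay above phr1 phl1 and wild type at −Pi, and all −Pi arrays were well below the +Pi arrays in both organs.

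BTSL1 (AT1G74770) encodes a hemerythrin-domain E3 ligase that limits the iron deficiency response, and it is expressed mainly in roots. It gave 3.43, 4.0 and 3.86 in phr1 phl1 shoots, 4.11, 3.83 and 3.24 in phr1 shoots, 3.81, 4.13 and 3.99 in wild-type shoots at −Pi and 5.06, 5.3 and 4.91 in wild-type shoots at +Pi. In roots it gave 5.96, 6.05 and 5.75 in phr1 phl1 roots, 6.33, 6.38 and 5.6 in phr1 roots, 7.17, 6.64 and 7.06 in wild-type roots at −Pi and 9.44, 9.42 and 9.56 in wild-type roots at +Pi. Both mutants lay below wild type at −Pi in roots with no overlap, phr1 phl1 being called lower, and BTSL1 was among the 4 members with the lowest mean difference between phr1 phl1 and wild type at −Pi.

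On the list of 22 iron homeostasis genes, 5 were measured. Of these, 4 were called lower at −Pi in wild-type shoots (7.95% of all probe sets) and 4 in roots (1.64%). The 4 in shoots were OPT3, BHLH101, AT1G47400 and PYE, and the 4 in roots were OPT3, BHLH101, AT1G47400 and AT3G12900. The rule chose OPT3 and names BHLH101, AT1G47400 and AT3G12900 for removal, so both counts are a description. Of these 5 only OPT3 was a member, since BHLH101 and AT1G47400 were removed by the rule. The transcription factor PYE had −1.38 (SE 0.13) in shoots and −0.40 (SE 0.13) in roots, and S8H (AT3G12900), which makes the coumarin fraxetin, −0.80 (SE 0.25) and −4.57 (SE 0.25). None of the 5 was called different from wild type at −Pi in either mutant in either organ. OPT3 and BTSL1 correlated at −0.46 and −0.02 with the array score, and their median wild-type differences without the 6 arrays were −1.57 in shoots and −2.36 in roots.

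Cell wall and secreted protein members had a deeper median fall in roots than in shoots, with −2.07 there and −1.29 in shoots. The polygalacturonase-type AT5G14650 had differences of −4.14 in roots and −1.36 in shoots, and the pectin methylesterase ATPMEPCRB −2.88 and −1.08. AT5G14650 was higher than wild type at −Pi by 2.21 in phr1 phl1 roots and by 3.09 in phr1 roots, whereas ATPMEPCRB differed by 0.33 and 0.48. The GDSL lipase AT5G45670 and the beta-glucosidase BGLU42 had differences from wild type at −Pi between −0.39 and 0.52 in both mutants and organs. Without the 6 arrays the wild-type medians of the group were −2.15 in roots and −1.1 in shoots.

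Several of the largest mean falls belonged to probe sets with no matched gene. For 251677_at the signal was 2.76, 2.71 and 2.75 in phr1 phl1 shoots, 2.99, 2.74 and 2.95 in phr1 shoots, 2.93, 3.07 and 2.99 in wild-type shoots at −Pi and 6.8, 7.42 and 7.69 in wild-type shoots at +Pi. In roots it was 4.06, 4.0 and 4.17 in phr1 phl1 roots, 4.38, 4.56 and 4.5 in phr1 roots, 4.51, 4.42 and 4.47 in wild-type roots at −Pi and 8.55, 7.44 and 8.22 in wild-type roots at +Pi. The −Pi arrays of all 3 genotypes formed a narrow band in each organ, far below the +Pi arrays, and in roots the phr1 phl1 arrays were the lowest. The −Pi shoot values were at the low end of the signals given here, where a difference between genotypes may not show.

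254550_at was brightest in Pi-fed roots. Its shoots gave 3.0, 3.01 and 2.91 in phr1 phl1 shoots, 2.91, 3.14 and 3.05 in phr1 shoots, 3.01, 3.19 and 3.0 in wild-type shoots at −Pi and 5.41, 5.32 and 4.92 in wild-type shoots at +Pi. Its roots gave 2.95, 2.94 and 2.81 in phr1 phl1 roots, 3.02, 3.1 and 3.4 in phr1 roots, 5.56, 3.6 and 4.75 in wild-type roots at −Pi and 10.91, 10.09 and 9.26 in wild-type roots at +Pi. Both mutants were lower in roots than wild type at −Pi, with values close to those of all −Pi shoots. These mutant root and −Pi shoot values were likewise at the low end of the signals, where differences may not show.

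For 259813_at shoots read 3.93, 3.96 and 3.71 in phr1 phl1 shoots, 3.23, 2.97 and 3.15 in phr1 shoots, 3.75, 3.31 and 3.15 in wild-type shoots at −Pi and 5.69, 6.17 and 5.68 in wild-type shoots at +Pi. Roots read 6.97, 5.62 and 6.04 in phr1 phl1 roots, 5.82, 6.23 and 5.38 in phr1 roots, 6.6, 6.21 and 6.75 in wild-type roots at −Pi and 10.39, 10.48 and 10.29 in wild-type roots at +Pi. The −Pi arrays of all genotypes lay far below the +Pi arrays in both organs, and in roots the genotypes overlapped at −Pi.

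254828_at was the member with the highest excess of roots over shoots in phr1 phl1. Shoot signals were 7.2, 5.68 and 5.23 in phr1 phl1 shoots, 6.45, 4.45 and 6.27 in phr1 shoots, 4.77, 4.25 and 4.66 in wild-type shoots at −Pi and 7.34, 6.5 and 7.86 in wild-type shoots at +Pi. Root signals were 9.84, 8.91 and 9.25 in phr1 phl1 roots, 9.18, 9.36 and 8.33 in phr1 roots, 9.19, 7.43 and 8.73 in wild-type roots at −Pi and 12.13, 11.67 and 11.9 in wild-type roots at +Pi. In shoots the phr1 array that stood apart overlapped wild type at −Pi and the others were higher, and in roots the genotypes overlapped at −Pi below the +Pi arrays.

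AT5G40450 had one of the deepest falls in shoots. It measured 5.24, 5.81 and 5.0 in phr1 phl1 shoots, 5.27, 4.46 and 5.8 in phr1 shoots, 4.21, 3.91 and 4.39 in wild-type shoots at −Pi and 8.68, 7.67 and 8.87 in wild-type shoots at +Pi. In roots it was 5.38, 8.12 and 5.84 in phr1 phl1 roots, 5.54, 6.79 and 4.73 in phr1 roots, 6.43, 5.49 and 7.38 in wild-type roots at −Pi and 7.53, 8.16 and 8.62 in wild-type roots at +Pi. All −Pi arrays in shoots were below all +Pi arrays, whereas in roots replicate 2 of phr1 phl1 reached into the +Pi range.

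At the other end, 267126_s_at exceeded its +Pi level in mutant shoots. Its values were 11.5, 11.68 and 11.54 in phr1 phl1 shoots, 11.48, 11.56 and 11.45 in phr1 shoots, 8.07, 8.48 and 7.98 in wild-type shoots at −Pi and 10.89, 11.15 and 10.89 in wild-type shoots at +Pi. In roots they were 9.2, 9.01 and 8.87 in phr1 phl1 roots, 8.32, 8.3 and 8.28 in phr1 roots, 6.22, 6.89 and 6.51 in wild-type roots at −Pi and 9.17, 9.4 and 9.23 in wild-type roots at +Pi. The 3 genotypes were separate in roots at −Pi, in the order phr1 phl1, phr1 and wild type, and both mutants exceeded all wild-type arrays in shoots. This probe set can read more than 1 gene, as its name ending marks.

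263498_at had the lowest mean difference between phr1 phl1 and wild type at −Pi. Its shoots gave 5.03, 4.29 and 4.72 in phr1 phl1 shoots, 4.84, 5.12 and 4.75 in phr1 shoots, 6.23, 6.39 and 6.26 in wild-type shoots at −Pi and 7.8, 7.7 and 7.59 in wild-type shoots at +Pi. Its roots gave 4.4, 4.53 and 5.03 in phr1 phl1 roots, 5.04, 4.93 and 5.11 in phr1 roots, 4.92, 5.09 and 5.16 in wild-type roots at −Pi and 6.43, 6.96 and 5.75 in wild-type roots at +Pi. Both mutants fell below wild type at −Pi in shoots without overlap, that is, further from the +Pi level than wild type.

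AT1G64330, a myosin heavy chain-related protein gene, was also among these lowest 4. Shoots gave 3.07, 3.84 and 2.75 in phr1 phl1 shoots, 3.39, 3.41 and 3.77 in phr1 shoots, 3.95, 3.04 and 3.98 in wild-type shoots at −Pi and 5.01, 4.25 and 5.29 in wild-type shoots at +Pi. Roots gave 3.62, 5.81 and 3.88 in phr1 phl1 roots, 4.29, 5.8 and 3.43 in phr1 roots, 4.9, 3.91 and 5.6 in wild-type roots at −Pi and 5.97, 5.82 and 6.42 in wild-type roots at +Pi. The genotypes overlapped at −Pi in both organs, and its wild-type differences were −0.88 in shoots and −0.82 in roots without the 6 arrays.

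The comparison of phr1 phl1 with phr1 asks whether the second mutation adds to the first, and it used no array that chose the members. In shoots, 1 member was called higher in phr1 phl1 (0.207% of all probe sets) and none lower (0.563%) in limma. At an unadjusted p under 0.05, 15 members were higher (5.35%) and 7 lower (5.31%). In roots, 7 members were called higher (0.98%) and 1 lower (0.809%), and at an unadjusted p under 0.05 there were 25 higher (6.48%) and 5 lower (6.65%). With the 6 arrays left out, 1 was higher (0.211%) and 0 lower (0.418%) in shoots, whereas 8 were higher (1.42%) and 2 lower (0.879%) in roots. The median difference of the members was −0.05 in shoots and 0.14 in roots. The 7 members higher in roots are 5.43% of the members.

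The member that differed in shoots was 253061_at. It gave 7.4, 7.09 and 6.19 in phr1 phl1 shoots, 5.13, 4.71 and 4.98 in phr1 shoots, 4.52, 4.31 and 4.39 in wild-type shoots at −Pi and 8.46, 7.22 and 8.12 in wild-type shoots at +Pi. In roots it gave 8.05, 7.77 and 6.44 in phr1 phl1 roots, 7.13, 6.3 and 5.62 in phr1 roots, 5.71, 5.28 and 5.71 in wild-type roots at −Pi and 7.88, 8.17 and 7.3 in wild-type roots at +Pi. In shoots the phr1 phl1 arrays were above all phr1 arrays, with a difference of 1.95 (SE 0.42, adjusted p = 0.0169 from limma). In roots the difference of 1.07 (SE 0.42, adjusted p = 0.217 from limma) missed the threshold, and the arrays of the mutants overlapped. The shoot call was lost with only the groups compared and without replicate 2 of phr1 (1.836) or replicate 1 (1.697) or 2 (1.855) of phr1 phl1.

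AT2G15960, a gene of unknown function, differed most in roots. Its shoot signal was 9.68, 9.78 and 8.72 in phr1 phl1 shoots, 8.57, 7.5 and 8.99 in phr1 shoots, 8.64, 8.23 and 8.37 in wild-type shoots at −Pi and 10.08, 8.36 and 9.94 in wild-type shoots at +Pi. Its root signal was 6.8, 6.96 and 7.02 in phr1 phl1 roots, 3.88, 3.8 and 4.06 in phr1 roots, 2.93, 2.85 and 2.98 in wild-type roots at −Pi and 4.46, 4.22 and 4.49 in wild-type roots at +Pi. In roots phr1 phl1 stood above phr1, wild type at −Pi and wild type at +Pi with no overlap, and the difference from phr1 was 3.02 (SE 0.37, adjusted p = 3.18e-05 from limma). The shoot difference of 1.04 (SE 0.37, adjusted p = 0.228 from limma) missed the threshold.

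For 266072_at the roots gave 8.59, 8.85 and 8.6 in phr1 phl1 roots, 6.83, 6.96 and 6.49 in phr1 roots, 4.57, 5.03 and 4.6 in wild-type roots at −Pi and 6.31, 5.97 and 6.65 in wild-type roots at +Pi. Shoots gave 10.12, 9.99 and 9.95 in phr1 phl1 shoots, 9.4, 8.72 and 9.04 in phr1 shoots, 6.94, 6.45 and 5.65 in wild-type shoots at −Pi and 7.73, 6.49 and 8.27 in wild-type shoots at +Pi. The order phr1 phl1, phr1, wild type at −Pi was kept without overlap in both organs. In roots the difference between the mutants was 1.92 (SE 0.34, adjusted p = 0.00157 from limma).

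249862_at gave 8.99, 8.68 and 8.59 in phr1 phl1 roots, 7.48, 6.97 and 6.96 in phr1 roots, 6.19, 6.61 and 6.49 in wild-type roots at −Pi and 8.19, 8.48 and 7.87 in wild-type roots at +Pi. In shoots it had 10.77, 10.24 and 10.09 in phr1 phl1 shoots, 9.32, 8.33 and 9.3 in phr1 shoots, 7.59, 6.83 and 6.33 in wild-type shoots at −Pi and 10.56, 8.81 and 10.65 in wild-type shoots at +Pi. The same order held, again with no overlap between the genotypes at −Pi in either organ, and the root difference between the mutants was 1.62 (SE 0.4, adjusted p = 0.0206 from limma). Its adjusted p was 0.161 without the 6 arrays, where limma no longer called it, and the call was also lost without any 1 of 5 of the 6 mutant root arrays (1.496 to 1.699), replicate 1 of phr1 being the exception.

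245219_at, which matched several genes, had 5.43, 6.35 and 5.91 in phr1 phl1 roots, 5.08, 4.64 and 4.62 in phr1 roots, 4.09, 4.09 and 4.28 in wild-type roots at −Pi and 5.03, 5.76 and 5.0 in wild-type roots at +Pi. Shoot values were 9.22, 9.25 and 8.34 in phr1 phl1 shoots, 9.07, 8.51 and 8.82 in phr1 shoots, 8.25, 7.95 and 8.65 in wild-type shoots at −Pi and 9.47, 9.07 and 9.41 in wild-type shoots at +Pi. In roots the phr1 phl1 arrays were all higher than those of phr1, by 1.12 (SE 0.27, adjusted p = 0.0185 from limma), while in shoots the mutants overlapped. This call was lost with only the groups compared (1.115) and without replicate 2 (1.045) or 3 (1.035) of phr1 roots or replicate 2 (0.888) or 3 (1.109) of phr1 phl1 roots.

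AAH gave 6.06, 5.75 and 5.68 in phr1 phl1 roots, 4.67, 4.69 and 4.82 in phr1 roots, 4.13, 4.86 and 4.45 in wild-type roots at −Pi and 6.17, 5.79 and 6.21 in wild-type roots at +Pi. Its shoots gave 4.92, 4.55 and 4.86 in phr1 phl1 shoots, 4.64, 4.97 and 4.45 in phr1 shoots, 3.8, 4.35 and 3.9 in wild-type shoots at −Pi and 5.53, 6.18 and 5.37 in wild-type shoots at +Pi. The phr1 phl1 roots lay above those of phr1, with a difference of 1.11 (SE 0.21, adjusted p = 0.00327 from limma), with 1 array inside the +Pi range and 2 below it, while phr1 roots overlapped wild type at −Pi. The difference was 0.993 without replicate 1 of phr1 phl1, just under the 2-fold limit. In shoots the difference of 0.09 (SE 0.21, adjusted p = 0.973 from limma) missed the threshold, and the mutants overlapped.

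CHLM gave 7.18, 7.16 and 7.2 in phr1 phl1 roots, 6.52, 5.77 and 6.12 in phr1 roots, 5.38, 5.76 and 5.58 in wild-type roots at −Pi and 6.69, 6.73 and 6.72 in wild-type roots at +Pi. In shoots it gave 10.48, 10.72 and 10.68 in phr1 phl1 shoots, 10.18, 10.27 and 10.13 in phr1 shoots, 9.34, 9.39 and 9.52 in wild-type shoots at −Pi and 10.5, 10.41 and 10.61 in wild-type shoots at +Pi. In roots all phr1 phl1 arrays exceeded every other root array, and the difference from phr1 was 1.04 (SE 0.14, adjusted p = 5.27e-05 from limma). THIC, with a root difference of 0.78 (SE 0.21, adjusted p = 0.0357 from limma), stayed under 2-fold. For CHLM the difference was 0.891 with array weights and 0.86 without replicate 2 of phr1, under the 2-fold limit.

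The other member called higher in phr1 phl1 roots was 251356_at, with a difference of 1.02 (SE 0.23, adjusted p = 0.0106 from limma), which limma did not call without the 6 arrays (adjusted p = 0.0745), nor with only the groups compared, with array weights (0.819) or without replicate 3 of phr1 (0.865) or replicate 1 of phr1 phl1 (0.808). In the opposite direction, AT2G19970, a gene of the PR-1 type CAP superfamily, was lower. Root signals of AT2G19970 were 7.42, 6.96 and 8.26 in phr1 phl1 roots, 9.53, 9.59 and 9.2 in phr1 roots, 7.11, 7.26 and 7.06 in wild-type roots at −Pi and 10.35, 9.75 and 9.52 in wild-type roots at +Pi. Shoot signals were 5.64, 4.91 and 5.65 in phr1 phl1 shoots, 7.01, 5.69 and 6.46 in phr1 shoots, 4.38, 4.07 and 4.03 in wild-type shoots at −Pi and 5.96, 5.97 and 5.83 in wild-type shoots at +Pi. Its phr1 roots overlapped the +Pi range, while phr1 phl1 roots lay apart from phr1, the difference being −1.89 (SE 0.31, adjusted p = 0.000691 from limma). In shoots the difference of −0.98 (SE 0.31, adjusted p = 0.143 from limma) missed the threshold, though phr1 arrays were again all above those of phr1 phl1.

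**Figure D4:**
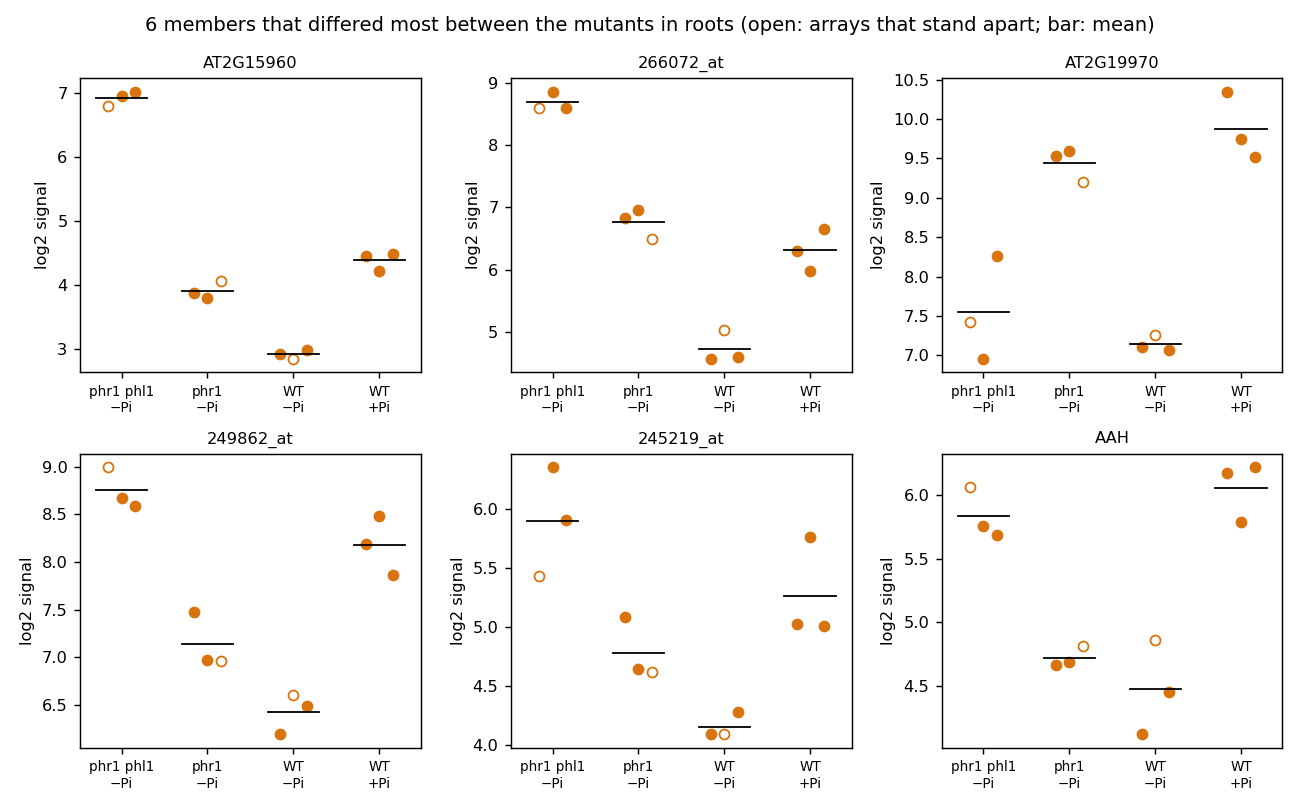
Root log2 signal of the 6 members with the largest called difference between phr1 phl1 and phr1, in every array; from left to right phr1 phl1, phr1 and wild type at −Pi and wild type at +Pi, with a bar at each mean and open points for arrays that stood apart. In each panel the phr1 phl1 arrays are separate from the phr1 arrays, above them for 5 members and below them for AT2G19970.

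Some organ markers differed in the same comparison. The mean of the 4 shoot markers lay between 5.55 and 6.19 in phr1 phl1 root arrays, between 4.81 and 4.97 in phr1 roots, between 4.54 and 4.82 in wild-type roots at −Pi and between 4.42 and 5.17 at +Pi. Between phr1 phl1 and phr1 roots, the photosynthesis genes RCA, PRK and SBPASE differed by 1.45, 1.01 and 1.18. FAMA, the other shoot marker, differed by 0.11 (adjusted p = 0.968 from limma). Of 9 measured photosynthetic light reaction genes, 6 were called higher in phr1 phl1 roots than in phr1 roots (0.98% of all probe sets). Of the 2 root-hair markers, EXPA7 was called lower in phr1 phl1 roots than in phr1 roots (−1.06, adjusted p = 0.0326 from limma), and EXPA18 had a difference of −0.92 (adjusted p = 0.126 from limma). Without the 6 arrays neither was called lower, with a median of −1.13 against −0.99. The part of the photosynthetic and root-hair transcripts in the member differences was not tested.

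Whether the difference between the mutants itself differed between roots and shoots was tested as an interaction in limma. None of the 129 members was called at an adjusted p under 0.05, where 0.558% of all probe sets had a larger and 0.382% a smaller root difference. At an unadjusted p under 0.05 there were 9 members with a larger (4.5%) and 3 with a smaller (4.26%) difference in roots. With the 6 arrays left out, 2 members were called larger (1.05%) and 1 smaller (0.563%) by limma: OPT3 with an interaction of −1.45 (adjusted p = 0.00737, against 0.18 with all arrays), 253758_at with 1.34 (adjusted p = 0.00631, against 0.77) and 262645_at with 1.1 (adjusted p = 0.0164, against 0.695). With limma's array weights 5 members were called, and the share of all probe sets called under that setting is not given.

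Root levels were also compared with shoot levels within each mutant, where no array had chosen the members. In phr1 phl1, 21 members were called higher in roots (12.5% of all probe sets) and 25 lower (11.5%). In phr1, 19 were higher (13.9%) and 27 lower (11.6%). Of these, 16 members were higher in roots of both mutants (76.2% of those of phr1 phl1 and 84.2% of those of phr1), beside 87.2% and 78.8% over all probe sets. Members lower in roots of both numbered 24 (96.0% and 88.9%), beside 88.9% and 88.2% over all probe sets.

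Among the named members higher in roots of both mutants were AT5G14650, AT2G19970, BTSL1, AT5G15510, AT3G51720, AT3G45160 and AT1G28400. BTSL1 was higher in roots by 2.16 (SE 0.22, adjusted p = 7.17e-08 from limma) in phr1 phl1 and by 2.38 (SE 0.22, adjusted p = 1.65e-08 from limma) in phr1. Lower in roots of both were CHLM, THIC, AT3G23700, AT5G24490, BZO2H3, OPT3, AT5G45670, AT2G15960 and AT1G20070. AT3G23700 showed the largest such difference of these named genes, with −4.24 (SE 0.28, adjusted p = 1.1e-10 from limma) in phr1 phl1 and −4.94 (SE 0.28, adjusted p = 1.07e-11 from limma) in phr1. No ribosome biogenesis probe set was called different between the organs in either mutant, the group medians being 0.36 in phr1 phl1 and 0.11 in phr1. The counts without the 6 arrays were 25 higher (12.7%) and 26 lower (11.6%) in phr1 phl1, and 22 (14.6%) and 28 (11.8%) in phr1.

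**Figure D5:**
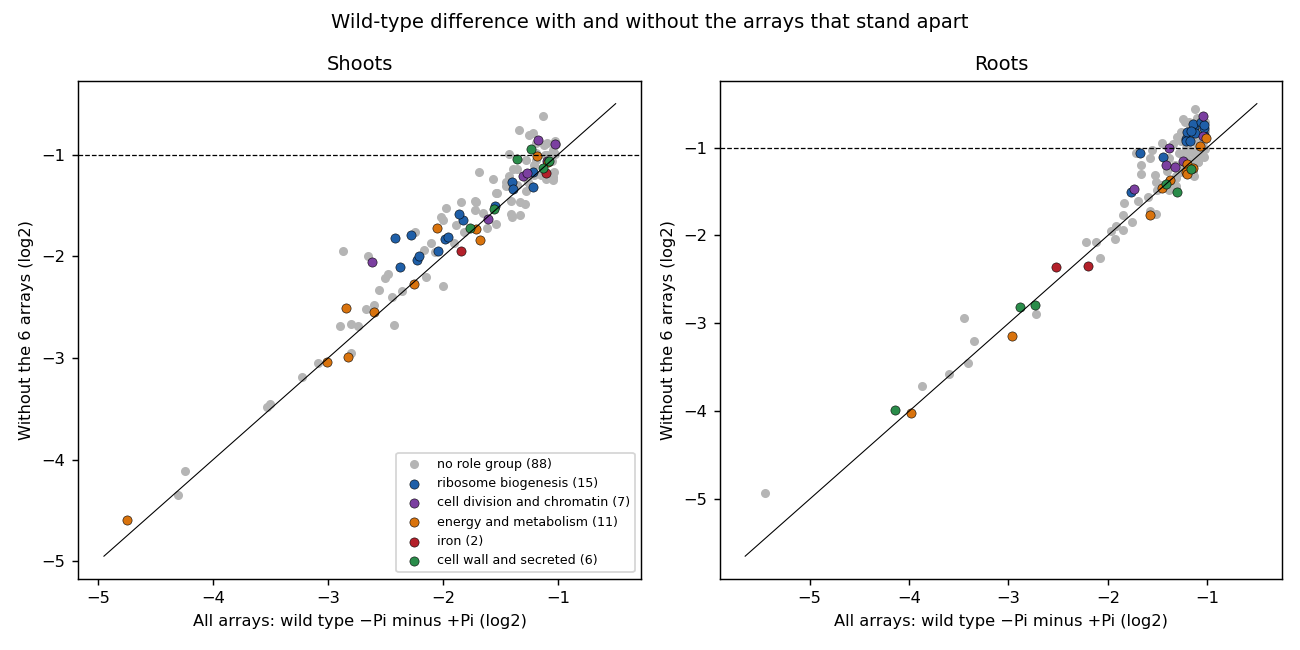
Wild-type difference between −Pi and +Pi (log2) of the 129 members with all arrays (x axis) and without the 6 arrays that stood apart (y axis), in shoots (left) and roots (right), coloured by role group; the solid line marks equal values and the dashed line the threshold of −1. In roots most ribosome biogenesis points lie above the dashed line, so that 3 of the 15 probe sets still met the rule, whereas deep falls such as those of AT1G73600 and AT5G14650 moved by little.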

How the data were processed

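The authors deposited log2 signals made with RMA, which corrects background, normalises between arrays and summarises probes; other settings are not given in the sources used here. Without 64 control probe sets, 22746 were fitted over the 24 arrays in 1 linear model of 8 group means with limma 3.58.1 in R 4.3.3. P-values were adjusted by Benjamini-Hochberg over all probe sets of a comparison. Calls required an adjusted p under 0.05 and, except for the interaction, a difference over 2-fold. No pseudocount or filter was used. Groups came from the sample labels, and 3 arrays per group limit the precision. The fit was tested on simulated data. Probe sets were named through the platform annotation and RefSeq (TAIR10.1) or the study's gene tables: 14126 matched 1 gene, 503 several, 112 an entry with no locus and 8005 none. The labels call the 3 arrays of a group biological replicates, and p-values measure the spread between these samples.

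Every array value was given for the 8 members with the largest mean fall, for up to 6 called between the mutants per organ, for list genes that are members, and for the 4 highest and lowest differences of phr1 phl1 from wild type at −Pi. RBL, AT1G06720, AT5G46840, AT3G11450, 3xHMG-box1, BZO2H3 and AT4G27450 were added for their role after their values were seen. The members, lists and tests were chosen with earlier results of these data known. The rule also names AT3G12900, which did not reach the shoot threshold. Whether equal replicate numbers pair arrays was judged from the correlation of their deviations. It exceeded 0.1 in all 3 pairs (0.5, 0.65 and 0.43) only for phr1 against wild type in −Pi shoots. There the highest correlations with arrays of other numbers were 0.33, −0.47 and 0.45, so replicate 3 was no closer to its own number. Replicate 2 stood apart in both of these groups, and the part of the array score in these correlations was not tested. Alternatives were a replicate block, organs or groups fitted alone, other scaling, variance models, thresholds and probe set choices, and arrays left out. Sequences were not used here.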

Additional observations from a re-analysis of the deposited data

Results flagged for a closer look

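For the members below, differences of the mutant named from wild type at −Pi went opposite ways in shoots and roots. The arrays of that mutant and of wild type did not overlap in either organ. In 1 organ and direction, 14.4% (phr1 above wild type, roots) to 22.9% (phr1 phl1 above wild type, shoots) of all probe sets did not overlap. The share for both organs together is not given. The difference between organs was not tested, because wild-type arrays of both organs chose the members. AT4G27450, which encodes a protein with YGL and LRDR motifs, was higher by 3.39 log2 units in phr1 phl1 shoots and lower in phr1 phl1 roots (−0.63), so that the root difference minus the shoot difference was −4.02. In phr1 the same gene had 1.83 in shoots and −1.43 in roots, an organ difference of −3.26. AT2G43620, of the chitinase family, had −1.38 in phr1 phl1 shoots and 1.85 in phr1 phl1 roots, an organ difference of 3.23. Its phr1 shoot arrays overlapped wild type at −Pi. The unnamed 262134_at had −0.36 in phr1 shoots and 0.81 in phr1 roots, an organ difference of 1.17. Its phr1 phl1 arrays overlapped wild type at −Pi in both organs.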

How the results depend on the processing

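The size of the set depended most on its thresholds: 656 probe sets met the rule at 1.5-fold, 20 at 3-fold and 79 when an adjusted p under 0.05 was also required in both organs, against 129. Leaving out 1 wild-type array at a time gave 94 to 164, the lowest without replicate 2 of wild-type roots at −Pi (88 shared) and the highest without replicate 3 of that group. Centring array medians gave 107 members, all shared, and quantile normalisation within organs 130, of which 126 were shared.

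Counts between phr1 phl1 and phr1 were small and moved easily. Except without the 6 arrays, the shares of all probe sets called under the alternatives in this section are not given. A setting can change the calls among all probe sets too, so the counts do not show a change particular to the members. Members higher in shoots numbered 2 with the replicate block, 2 with array weights, 0 with only the groups compared and 3 at 1.5-fold and an adjusted p under 0.1, against 1; leaving out single arrays gave 0 to 2 (2 without replicate 1 of phr1, and 0 without replicate 2 of phr1 or replicate 1 or 2 of phr1 phl1). Members lower in shoots numbered 1 with array weights, and 0 to 1 without single arrays, the 1 without replicate 2 of phr1. In roots, 11 were higher with the organs fitted separately and 11 at the relaxed threshold, against 7, and 4 to 7 without single arrays, the 4 without replicate 2 or 3 of phr1 or replicate 1 of phr1 phl1. Those lower in roots numbered 2 with organs fitted separately, 2 with only the groups compared, 4 with array weights, 4 at the relaxed threshold and 2 without the 6 arrays, against 1, and 1 to 1 without single arrays. The interaction gave 5 members with array weights, 1 at the relaxed threshold, 3 without the 6 arrays and 0 to 1 without single arrays (1 without replicate 2 of phr1 shoots, replicate 1 of phr1 roots or replicate 1 of phr1 phl1 roots). Leaving out the 6 arrays was chosen after seeing the data.

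Within mutants, leaving out single arrays gave 19 to 28 higher and 23 to 26 lower in roots of phr1 phl1, and 16 to 24 and 25 to 28 in phr1, where the relaxed threshold gave 29 higher. Over wild type at −Pi, the ranges were 32 to 53 in phr1 phl1 shoots, 31 to 54 in phr1 shoots, 30 to 35 in phr1 phl1 roots and 13 to 17 in phr1 roots, the 13 without replicate 1 or 2 of phr1, against 20. With the replicate block these counts were 43, 42, 33 and 19, and beside the count higher in shoots between the mutants (2 against 1) the block moved no count by over 1.5 times. With 1 probe set for each of the 71 matched genes, fewer features were counted: 0 higher in shoots and 3 in roots between the mutants, 8 higher and 9 lower in roots of phr1 phl1, 8 and 11 in roots of phr1, and 19, 18, 14 and 10 over wild type at −Pi in phr1 phl1 shoots, phr1 shoots, phr1 phl1 roots and phr1 roots.

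The arrays give no depth; 3 per group limit what a small difference can show.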
